A study of Mus musculus with 8 samples.

Results

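The protein kinases of the MAP kinase cascade and the dual-specificity phosphatases were examined in hippocampal RNA of BTBR and B6 mice. Members were chosen by gene name alone: every non-control array probe named Mapk, Map2k, Map3k, Map4k or Dusp followed by a number. The rule found 129 probes for 64 genes among the 41174 probes of the array, and 108 of these probes, for 60 genes, could be tested. The 4 BTBR mice were of the inbred strain BTBR T+ Itpr3tf/J, used as a model of autism spectrum disorder, and the 4 B6 mice were C57BL/6J. All were males aged 5 months, and whole hippocampal RNA of 1 mouse was labeled with Cy3 for each single-color Agilent array. For BTBR, a strain background field of the labels reads C57BL/6J, while title, source name and genotype all give BTBR, and the group was taken from these. No allele was manipulated in either group: the strains differ at many loci, and which of them lies behind a difference cannot be told apart in this comparison.

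The MAP kinase cascade passes signals from receptors at the cell surface to the nucleus through kinases that phosphorylate one another in series. A MAP4K or a small G protein such as Ras activates a MAP3K, the MAP3K activates a MAP2K, and the MAP2K activates a MAP kinase on both a threonine and a tyrosine; dual-specificity phosphatases remove these phosphates again. The main branches end in ERK, JNK and p38, and in hippocampal neurons ERK signaling is known for its part in synaptic plasticity and memory. The arrays measure transcript, not phosphorylation, so that none of the values below is a measure of kinase activity.

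Values are normalized log2 intensities, a difference is BTBR minus B6 on that scale, and a probe was called when limma gave an adjusted p under 0.05 over all 27981 tested probes. Of all these probes 2129 (7.61%) were called. The arrays sat on 2 slides, with replicates 1 and 2 of both strains on slide 1 and replicates 3 and 4 on slide 2. Between 56.9% and 71.9% of probes were well above background on each array, the median spot intensity was 378 to 489 over a median local background of 42 to 56, no spot was saturated, and precision is limited by the small number of arrays. The labeled tissue was checked against marker genes, as the mean log2 intensity over the brightest probe of each gene. BTBR replicates 1 and 2 stood apart from the other arrays for several lists. Genes typical of the thalamus had a mean of 13.27 in BTBR replicate 1 and 11.15 in BTBR replicate 2, against 10.39 to 10.78 on the others, and choroid plexus genes had 12.67 and 12.56, against 10.35 to 11.77. The hippocampal genes had 12.05 and 11.81, against 12.98 to 13.71, and the oligodendrocyte genes had 14.38 and 14.61, against 13.67 to 14.06. None of the 10 thalamic, 9 choroid plexus or 10 oligodendrocyte genes and 1 of the 12 hippocampal genes was called between the strains by limma (0 of 19, 1 of 11, 2 of 18 and 4 of 19 probes at an unadjusted p under 0.05, in this order). Blood genes were highest on BTBR replicate 3, at 13.48 against 11.37 to 12.13, and the pituitary genes ran from 8.50 to 10.55 over all arrays. The astrocyte genes did not overlap between the strains, at 14.23 to 14.40 in BTBR and 14.59 to 14.65 in B6, and 2 of 8 were called, both lower (25%, against 10.1% of all gene names). Of 11 microglial genes 5 were called, 4 lower and 1 higher (45.5%), and of 12 neuronal genes 2, both lower (16.7%). The part of this tissue composition in the results below was not tested, and differences are therefore also given without those 2 BTBR arrays, a setting chosen after their marker levels had been seen. In whole tissue, fewer cells of a type and less RNA per cell cannot be told apart.

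Few members of the cascade were differentially expressed. Limma called 5 of the 108 tested probes (4.63%), below the 7.61% called among all probes, with 2 up-regulated in BTBR hippocampus (1.85%, against 3.31% of all probes) and 3 down-regulated (2.78%, against 4.3%). The rank product, the test of the study, called 2 members, Dusp7 and Map3k6 (1.85%, against 3.93%). The 5 called probes belong to 5 of the 60 genes (8.33%), where 10.1% of all gene names had a called probe. Down-regulated were Dusp7, a cytoplasmic phosphatase that acts on ERK, Map3k7, the kinase TAK1 of the cytokine response, and one probe of Map3k12, the neuronal kinase DLK that signals axonal injury. Up-regulated were one probe of Map3k6, the stress-responsive kinase ASK2, and one probe of Dusp11, a phosphatase whose known substrate is RNA. At an unadjusted p under 0.05 there were 19 members (17.6%, against 18.5% of all probes), and at 13 members (12%) the arrays of the strains did not overlap, against 14.2% of all probes.

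**Figure D1:**
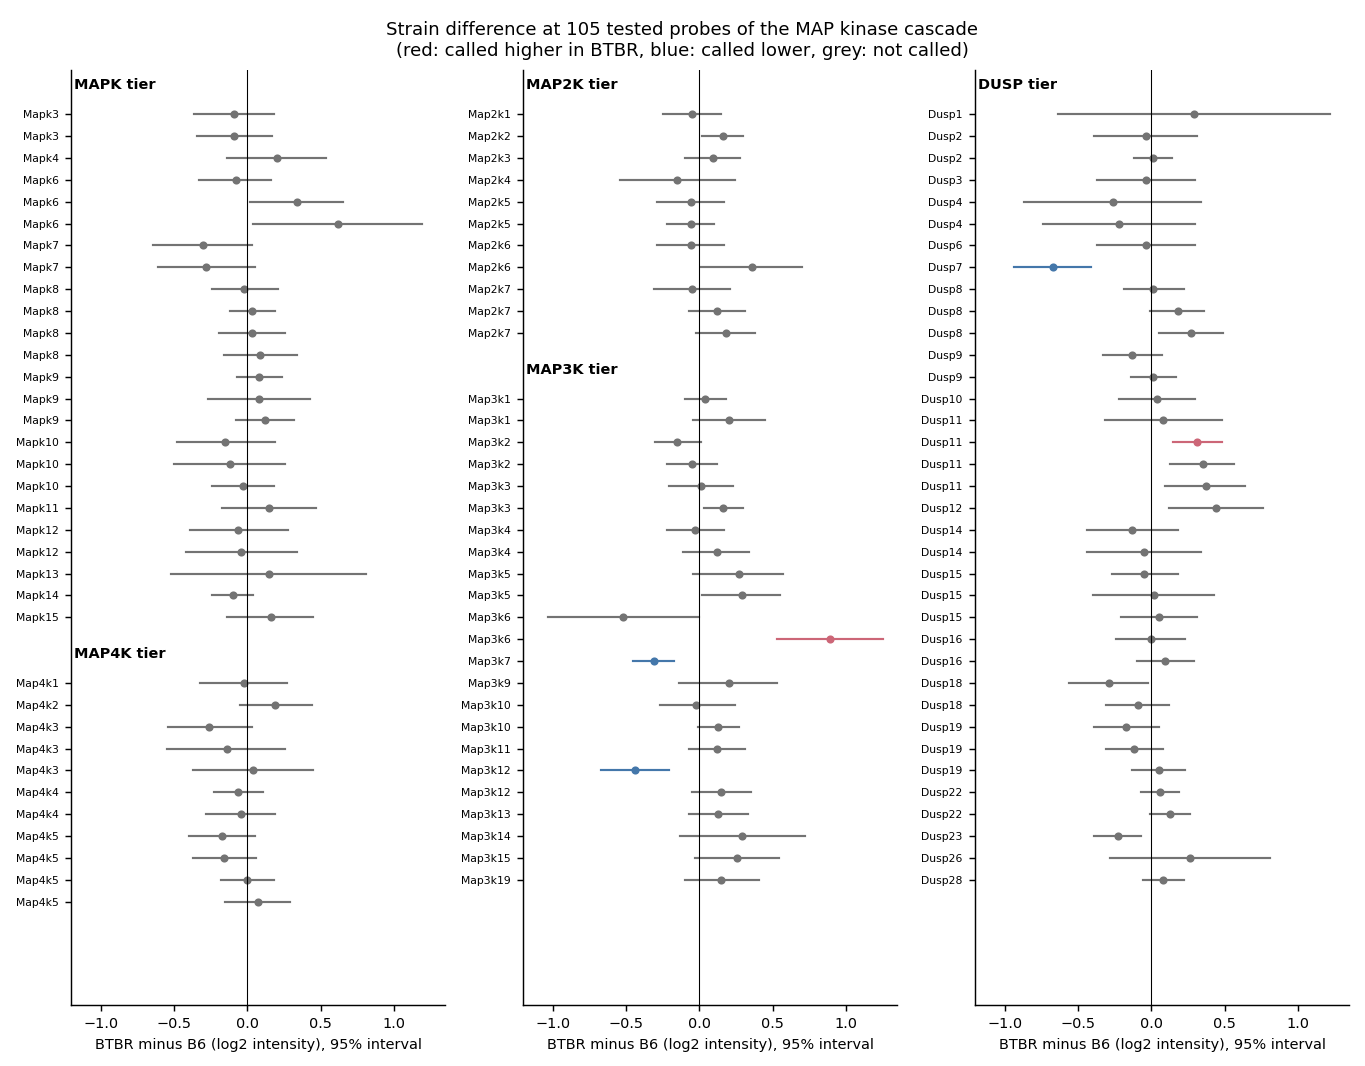
Difference between BTBR and B6 (x axis, log2 intensity) with its 95% interval for 105 of the 108 tested probes, 1 line per probe, grouped by tier and ordered by gene number. The 5 called probes are colored, and they run from -0.67 at Dusp7 to 0.89 at Map3k6, while most intervals of the other probes span 0.

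Most differences at the members were small and closely bounded, as they were over all tested probes. Of the 108 probes, 57 were higher and 51 lower in BTBR, with a median difference of 0.01, the same as the median over all tested probes. At 91 probes (84.3%) the whole 95% interval of the difference lay within 1.5-fold in either direction, against 81.9% of all probes. By median the members were slightly less tightly bounded than the array. Their median absolute difference was 0.12, against 0.1 over all tested probes. The 95% interval reached a median of 0.24 to either side of the difference, against 0.21. Only 3 members (2.78%) had a difference over 1.5-fold, against 5.07% of all probes, namely the Dusp7 probe, the called Map3k6 probe and a Mapk6 probe that was not called. The median SD within a strain was 0.12 in B6 and 0.18 in BTBR, and over all probes it was 0.11 and 0.14. The gap between replicates 1 and 2 and replicates 3 and 4 had a median size of 0.22 at the members in BTBR and 0.11 in B6, against 0.14 and 0.09 over all probes.

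Among the MAP kinases at the end of the cascade, limma and the rank product called none of 27 tested probes for 13 genes. Over all probes they called 7.61% and 3.93%. At an unadjusted p under 0.05 in limma there were 3 of the 27, against 18.5% of all probes. Mapk3 encodes ERK1, a kinase through which growth factors and synaptic activity reach the nucleus, and it had a difference of -0.09 at both probes (adjusted p = 0.75 and 0.77 in limma). Mapk7, which encodes the large kinase ERK5, was lower in BTBR at both of its probes, with differences of -0.30 and -0.28 (limma adjusted p = 0.33 and 0.37). On the first of these B6 ranged from 13.20 to 13.63, and BTBR gave 12.96 and 12.73 on slide 1 and 13.29 and 13.34 on slide 2, within the B6 range. Without BTBR replicates 1 and 2 the Mapk7 differences were -0.07 and -0.06.

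Of the stress-activated branches, JNK has 3 genes, of which Mapk10 is the form found mainly in the nervous system. The 4 tested probes of Mapk8 had differences from -0.02 to 0.09, the 3 of Mapk9 from 0.08 to 0.12 and the 3 of Mapk10 from -0.15 to -0.03, with adjusted p from 0.54 to 0.95 in limma. For the Mapk10 probe A_51_P433989 the 95% interval ran from -0.24 to 0.18, and B6 gave 15.82 to 15.99 where BTBR gave 15.63 to 16.04. The p38 kinase Mapk14 had a difference of -0.10, with a 95% interval from -0.24 to 0.04 (limma adjusted p = 0.45). Its 4 BTBR arrays, from 13.47 to 13.60, overlapped B6, from 13.57 to 13.71. The other p38 genes, Mapk11, Mapk12 and Mapk13, had differences from -0.06 to 0.15. The atypical kinases Mapk4 and Mapk15 had 0.20 and 0.16.

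Mapk6, which encodes the atypical kinase ERK3, had the largest strain difference of this tier and was picked out after its values were seen. At its probe A_52_P494354 the B6 arrays gave 11.31, 11.71, 11.47 and 11.13 and the BTBR arrays 12.50, 12.46, 11.38 and 11.75. BTBR replicates 1 and 2 were the highest of all arrays and BTBR replicate 3 lay inside the B6 range. The difference was 0.62, with a 95% interval from 0.04 to 1.19 (limma adjusted p = 0.23). It was 0.97 on slide 1 and 0.27 on slide 2, and 0.16 without BTBR replicates 1 and 2. The other tested Mapk6 probes had differences of 0.34 and -0.08.

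**Figure D2:**
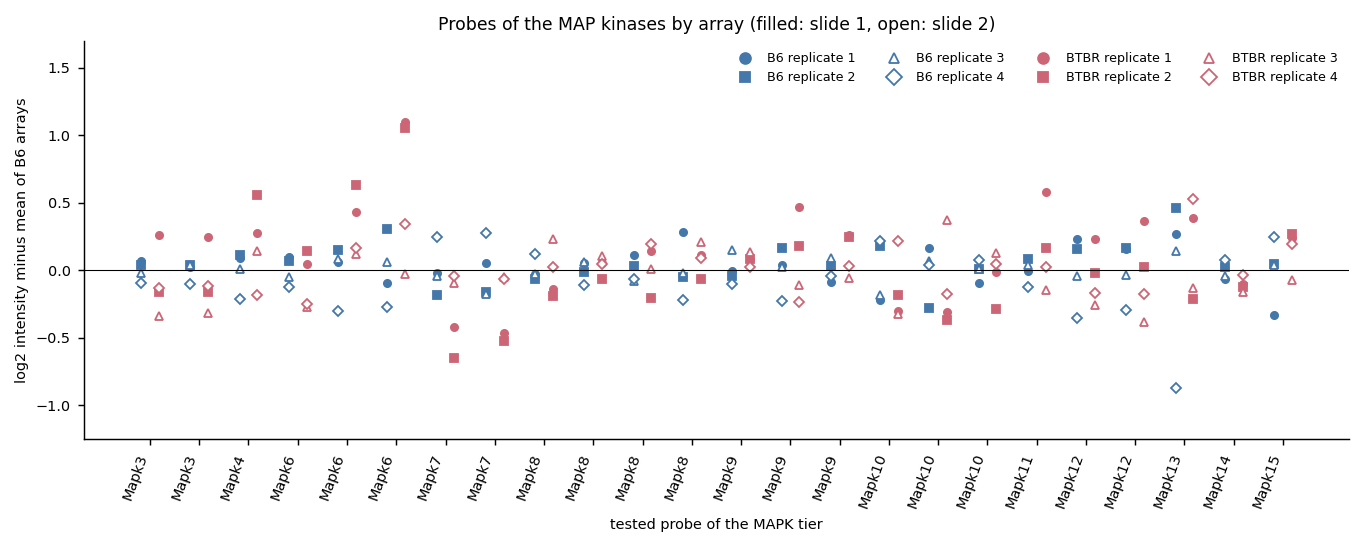
Normalized log2 intensity of each array minus the mean of the 4 B6 arrays (y axis) for 24 of the 27 tested probes of the MAP kinases (x axis, 1 position per probe), with B6 in blue and BTBR in red, filled symbols for slide 1 and open symbols for slide 2. At Mapk7 and 1 Mapk6 probe the filled BTBR symbols lie farther from the B6 arrays than the open ones.

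One step up, limma and the rank product called none of 11 MAP2K probes for 7 genes, against 7.61% and 3.93% of all probes. At an unadjusted p under 0.05 in limma there were 2 of the 11 MAP2K probes, against 18.5% of all probes. These kinases activate the branches: Map2k1 and Map2k2 act on ERK, Map2k7 on JNK, Map2k4 on JNK and p38, Map2k3 and Map2k6 on p38, and Map2k5 on ERK5. Map2k1, which encodes MEK1, had a difference of -0.05, with a 95% interval from -0.25 to 0.15 (limma adjusted p = 0.83). Map2k2, which encodes MEK2, gave 14.11, 14.15, 14.27 and 14.20 in B6 and 14.39, 14.35, 14.32 and 14.29 in BTBR. The strains did not overlap, but the difference of 0.16 with its standard error of 0.06 was not called (limma adjusted p = 0.19). Map2k4 had a difference of -0.15 and the 3 probes of Map2k7 had -0.05, 0.12 and 0.18, all with an adjusted p of 0.32 or more in limma. Map2k6 was picked out after its values were seen, because 1 of its probes was called without BTBR replicates 1 and 2. That probe, A_51_P256093, gave 11.62, 11.24, 11.51 and 11.54 in B6 and 11.80, 11.44, 11.91 and 12.18 in BTBR. Its difference was 0.36 with all arrays (limma adjusted p = 0.25) and 0.57 without the 2 arrays (limma adjusted p = 0.049), whereas the other tested Map2k6 probe had -0.06 and 0.07. Map2k3 had a difference of 0.09, and both probes of Map2k5 had -0.06.

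The MAP3K tier held 3 of the 5 called probes, of 23 tested for 15 genes (13%, against 7.61% of all probes, with no test of the tier). Its median difference was 0.13, with 16 probes higher and 7 lower, and without BTBR replicates 1 and 2 the median was 0.05. Map3k6 encodes ASK2, a kinase that works together with the oxidative stress sensor ASK1, and its 2 probes went in opposite directions. Probe A_51_P170807 (AB021861, mm9 chr4:132808784-132808843) gave 9.87, 9.90, 9.70 and 9.49 in B6 and 10.79, 10.94, 10.56 and 10.22 in BTBR. Every BTBR array was above every B6 array, and the difference was 0.89 with a standard error of 0.16, or 1.85-fold (limma adjusted p = 0.0087). Probe A_52_P222775 (NM_016693, mm9 chr4:132808672-132808731) gave 11.11, 11.22, 11.00 and 10.40 in B6 and 10.81, 10.65, 10.25 and 9.96 in BTBR. Here the strains overlapped, with a difference of -0.52 and a 95% interval from -1.03 to 0.00 (limma adjusted p = 0.27). The probes lie on the same strand, 52 bases apart. Probes were designed 60 bases long, and the last 30 bases of each are shown because it is this pair of neighboring sites that gave opposite values.
Map3k6 A_52_P222775: caaacagctttggacacacctgtcctagaa
Map3k6 A_51_P170807: catagactATTAAAcagaacacttgctacc
Capitals mark AATAAA or ATTAAA, the usual polyadenylation signals, searched on the strand of the probe. Either motif occurs in 8 of the 129 member probes (6.2%) and in 7.49% of all probes.

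The 2 Map3k6 probes can be set against each other within each array, and this ratio separated the strains more widely than either probe. The first minus the second ran from -1.33 to -0.92 in B6 and from -0.02 to 0.32 in BTBR, a shift of 1.40, given as a description since the pair was looked at for its call. The called probe had a difference of 0.98 on slide 1 and 0.80 on slide 2, and 0.65 without BTBR replicates 1 and 2 (limma adjusted p = 0.05, called before rounding). The other probe had -0.43, -0.60 and -0.83 in the same settings. The file pairs both probes with the name Map3k6 but with different sequence records, and which transcript each reads was not tested. Whether the strains differ in sequence under either probe was not tested either.

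Map3k7 encodes TAK1, which carries signals of TGF-beta and inflammatory cytokines to JNK, p38 and NF-kappaB. Its only probe, A_52_P175952 (NM_172688, mm9 chr4:32104023-32104082), gave 9.75, 9.75, 9.89 and 9.88 in B6 and 9.46, 9.54, 9.50 and 9.53 in BTBR. The change was small and even: no array overlapped, the SD was 0.03 in BTBR, and the difference was -0.31 with a standard error of 0.06 (limma adjusted p = 0.016). It was -0.25 on slide 1 and -0.37 on slide 2, and was called within neither slide (limma adjusted p = 0.10 and 0.053). Without BTBR replicates 1 and 2 it was -0.30 and not called (limma adjusted p = 0.086). The call was also lost without B6 replicate 3 or B6 replicate 4 (adjusted p = 0.061 and 0.056 in limma).

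Map3k12 encodes DLK, and its probes disagreed as well. Probe A_52_P302422 (NM_009582, mm9 chr15:102328148-102328207) gave 9.57, 9.35, 9.19 and 9.27 in B6 and 8.80, 8.79, 8.97 and 9.06 in BTBR. All BTBR arrays were below all B6 arrays, with a difference of -0.44 and a standard error of 0.10 (limma adjusted p = 0.031). The gap was -0.67 on slide 1 and -0.21 on slide 2, where it was not called (limma adjusted p = 0.49), and -0.33 without BTBR replicates 1 and 2 (limma adjusted p = 0.20). Leaving out 1 array kept the call for B6 replicate 3, BTBR replicate 3 and BTBR replicate 4, and gave an adjusted p of 0.061 to 0.085 for each of the other 5. The other probe, A_51_P377789 (mm9 chr15:102329888-102329947), gave 13.79 to 14.00 in B6 and 13.88 to 14.19 in BTBR, a difference of 0.15 (limma adjusted p = 0.42). The probes carry the same sequence record and lie 1680 bases apart, with the called probe farther toward the end of the transcript, which runs on the minus strand. The second minus the first was 4.40 to 4.73 in B6 and 5.09 to 5.21 in BTBR, again as a description. The last 30 bases of both are shown for this reason, and neither holds the motifs above.
Map3k12 A_51_P377789: ccctgtgaacaaccttgaaatataaccact
Map3k12 A_52_P302422: aataccatgtgcactaaatgtacaaatacc

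The remaining MAP3K genes were not called. Map3k5, which encodes ASK1, had differences of 0.29 and 0.27 at its 2 probes (limma adjusted p = 0.22 and 0.34), with 95% intervals from 0.02 to 0.55 and from -0.04 to 0.57. At the first, A_52_P41292, B6 ran from 11.08 to 11.48 and BTBR from 11.31 to 11.75. Without BTBR replicates 1 and 2 these differences were 0.18 and 0.04. The 8 probes of the MEKK genes Map3k1, Map3k2, Map3k3 and Map3k4 had differences from -0.15 to 0.20, and the mixed-lineage kinases Map3k9, Map3k10 and Map3k11 from -0.02 to 0.20. Map3k13, Map3k14, Map3k15 and Map3k19 had differences from 0.13 to 0.29. The MAP4K genes, kinases related to yeast Ste20 that act at the head of the JNK branch, had differences from -0.26 to 0.19. Neither limma nor the rank product called any of their 11 probes for 5 genes, against 7.61% and 3.93% of all probes. None had an unadjusted p under 0.05 in limma, against 18.5% of all probes. Map4k4 had -0.04 and -0.06, the latter with a 95% interval from -0.23 to 0.11 (limma adjusted p = 0.76).

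**Figure D3:**
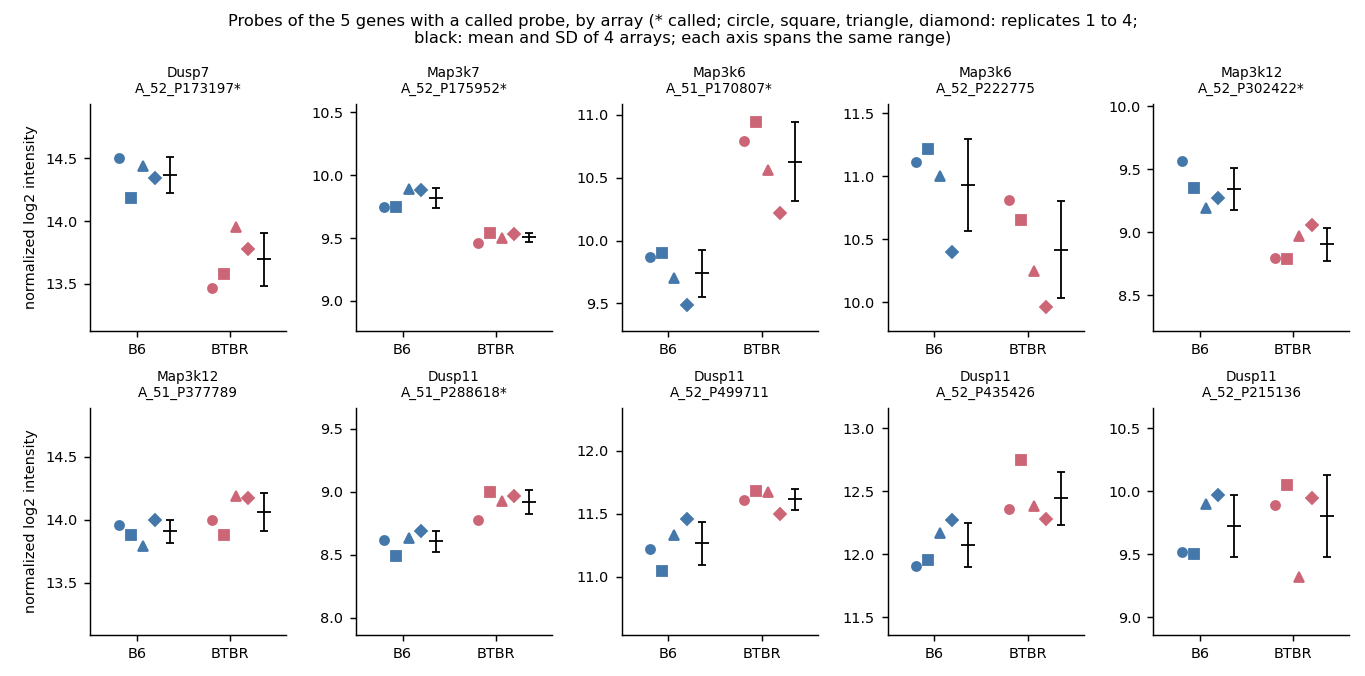
Normalized log2 intensity on each array (y axis, the same span in every panel) for the 10 tested probes of the 5 genes with a called probe, with B6 in blue, BTBR in red and the mean and SD of 4 arrays in black. Map3k6 and Map3k12 each have a called probe and one that goes the other way, and 3 of the 4 Dusp11 probes are higher on all BTBR arrays.

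Among the phosphatases 2 of 36 tested probes, for 20 genes, were called (5.56%, against 7.61% of all probes). Dusp7 belongs to the cytoplasmic phosphatases that act on ERK, together with Dusp6 and Dusp9, and it had the largest decrease of all members. Its probe A_52_P173197 (NM_153459, mm9 chr9:106277697-106277756) gave 14.50, 14.18, 14.44 and 14.34 in B6 and 13.47, 13.58, 13.95 and 13.78 in BTBR. No BTBR array reached the lowest B6 array, and the difference was -0.67 with a standard error of 0.12, so that the BTBR level was 0.628 of the B6 level (limma adjusted p = 0.0075). It was -0.82 on slide 1 (limma adjusted p = 0.012) and -0.53 on slide 2, where it was not called (limma adjusted p = 0.091), and -0.50 without BTBR replicates 1 and 2 (limma adjusted p = 0.044). As the only probe of Dusp7, and the one called under the most settings, its last 30 bases are shown.
Dusp7 A_52_P173197: tcttgccacagttgagaaattggcaaaaaa
The related Dusp6, which also acts on ERK in the cytoplasm and is itself induced by ERK signaling, had a difference of -0.04, with a 95% interval from -0.37 to 0.30 (limma adjusted p = 0.93), and the Dusp9 probes had 0.01 and -0.13.

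The other call among the phosphatases was Dusp11, for which 4 probes were tested. Probe A_51_P288618 (NM_028099, mm9 chr6:85897245-85897304) gave 8.62, 8.49, 8.63 and 8.69 in B6 and 8.78, 9.00, 8.93 and 8.97 in BTBR. The strains did not overlap, and the difference was 0.31 with a standard error of 0.07 (limma adjusted p = 0.034). Probes A_52_P499711 and A_52_P435426 were also higher on every BTBR array, by 0.35 and 0.37 (limma adjusted p = 0.064 and 0.13). The fourth, A_52_P215136, which lies 5728 bases from its nearest neighbor, gave 9.50 to 9.97 in B6 and 9.32 to 10.05 in BTBR, a difference of 0.08 (limma adjusted p = 0.87). Without BTBR replicates 1 and 2 the differences were 0.34, 0.32, 0.25 and -0.09, in the order named, and none was called. With the processed signal the difference at A_51_P288618 was 0.72 and was not called (limma adjusted p = 0.14). Of the 8 fits that leave out 1 array, the call was kept only without BTBR replicate 1, with an adjusted p of 0.056 to 0.11 in the other fits.

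The inducible nuclear phosphatases are transcribed within minutes of MAP kinase activation. Dusp1 gave 10.29, 11.54, 10.92 and 10.43 in B6 and 12.05, 11.43, 10.23 and 10.65 in BTBR. The spread within each strain exceeded the difference of 0.29, with a 95% interval from -0.64 to 1.22 (limma adjusted p = 0.78). The 4 arrays with the highest Dusp1, BTBR replicates 1 and 2 and B6 replicates 2 and 3, were also those with the highest mean of 10 activity-regulated genes such as Fos and Arc, at 12.76 to 13.38 against 11.91 to 12.10 on the others. Its difference was 0.82 on slide 1 and -0.23 on slide 2. Dusp4 had differences of -0.26 and -0.22 at its 2 probes (limma adjusted p = 0.68 and 0.69), and without BTBR replicates 1 and 2 they were 0.22 and 0.19. With the processed signal the second, A_51_P518051, was -0.81 (limma adjusted p = 0.54). At A_51_P347333 BTBR gave 10.37 and 10.06 on slide 1 and 11.40 and 10.98 on slide 2, against 10.66 to 11.13 in B6, so that the slide 1 arrays lay below B6 and the slide 2 arrays within or above it. Dusp2 had differences of -0.04 and 0.01, and at the second of its probes, A_51_P306031, all arrays lay between 8.02 and 8.12.

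Dusp12, an atypical phosphatase with a zinc-binding domain, was picked out after its values were seen. It gave 13.56, 13.31, 13.16 and 13.40 in B6 and 13.52, 13.64, 14.13 and 13.89 in BTBR. BTBR replicates 3 and 4 were the highest, and the difference was 0.44 (limma adjusted p = 0.11), with 0.15 on slide 1 and 0.73 on slide 2. Without BTBR replicates 1 and 2 it was 0.65 and was called (limma adjusted p = 0.028). Of the other atypical genes, 1 probe each of Dusp22 and Dusp23 did not overlap between the strains, with differences of 0.13 and -0.23, and neither was called (limma adjusted p = 0.31 and 0.11). The other tested probes of the atypical genes, for Dusp3, Dusp14, Dusp15, Dusp18, Dusp19, Dusp22, Dusp26 and Dusp28, had differences from -0.29 to 0.26. The phosphatases selective for JNK and p38, Dusp8, Dusp10 and Dusp16, had 6 probes with differences from 0.00 to 0.27, none called. Of these the Dusp8 probe A_51_P114314 gave 14.89 to 15.08 in B6 and 15.09 to 15.51 in BTBR, a difference of 0.27 (limma adjusted p = 0.16).

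The slides give readings of the strain difference on different mice, with all arrays normalized together. Adjusted p values within a slide came from a single fit to all arrays, with the spread pooled over both slides. Limma found no member whose difference depended on the slide at an adjusted p under 0.05, nor any probe of the array. At an unadjusted p under 0.05 there were 18 members (16.7%), against 9.94% of all probes. Within slide 1, which holds BTBR replicates 1 and 2, 9 member probes were called (8.33%, against 8.65% of all probes), and within slide 2 there were 2 (1.85%, against 3.7%), namely Map3k6 A_51_P170807 and Dusp12. Without BTBR replicates 1 and 2, 4 of the 108 probes were called (3.7%, against 5.54% of all probes), for Dusp7, Map3k6, Dusp12 and Map2k6, so that 2 of the 5 calls remained. In that setting 81 of the 108 members (75%) kept the sign of their difference. Both fits share all B6 arrays and the remaining BTBR arrays, so this agreement is partly built in.

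**Figure D4:**
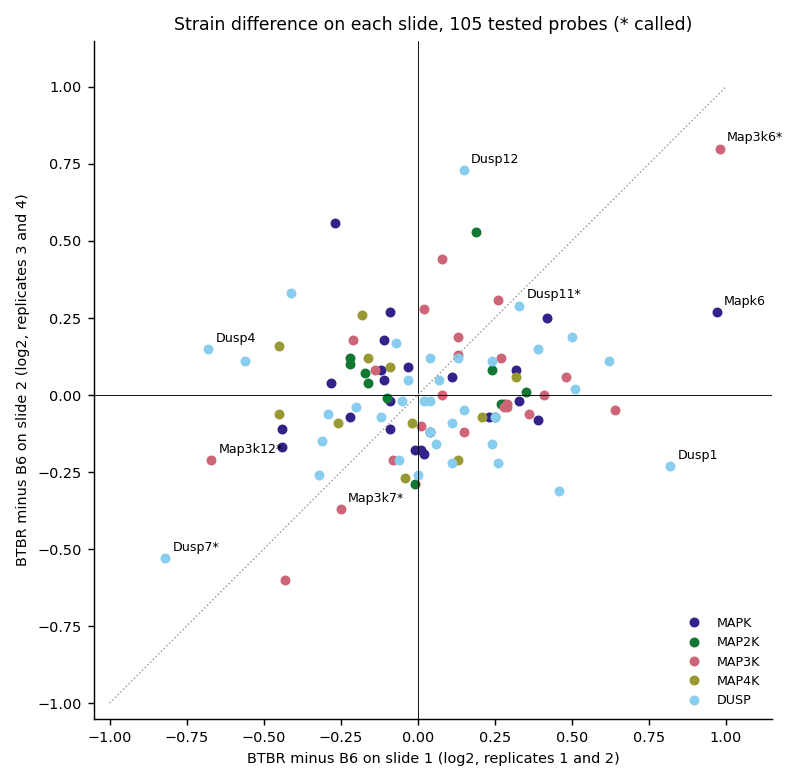
Difference between BTBR and B6 on slide 1 (x axis, log2 intensity) and on slide 2 (y axis) for 105 of the 108 tested probes, colored by tier, with the line of equal differences dotted and called probes starred. Dusp7, Map3k7 and the called Map3k6 probe lie near the line, at -0.82 and -0.53, -0.25 and -0.37, and 0.98 and 0.80, while Dusp1 lies at 0.82 and -0.23 and Dusp12 at 0.15 and 0.73.

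Genes with several probes allow a further check of the measurements. Of the 33 genes with more than 1 tested probe, all differences had the same sign in 18 and opposite signs in 15. The range between the probes of a gene had a median of 0.12 and exceeded 0.5 in 3 genes, Map3k6, Map3k12 and Mapk6. When the probes of each gene were reduced to their median, Map3k6, Map3k12 and Dusp11 were not called. Dusp7 and Map3k7 stayed called, but each has only 1 tested probe, so the median is that probe and is no further check.

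No probe was tested for 4 members, Dusp13, Dusp21, Dusp27 and Map3k8. Of the 21 untested probes, 20 were too dim and 1, of Map3k9, carried an outlier flag. Of the dim probes, 14 were not well above background on any array, and these were for Dusp16, Dusp18, Dusp19, Dusp21, Map2k6, Map3k2, Map3k8, Map3k9, Map4k2, Mapk10, Mapk6 and Mapk8. All of these genes except Dusp21 and Map3k8 had another probe that was tested. Each of the 8 arrays had a signal well above background at 92 of the tested probes.

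The genes around the cascade were read in the same way, from lists of its upstream switches, scaffolds and targets. Among 22 tested genes of Ras, Raf and their regulators 2 were called (9.09%, against 10.1% of all gene names), 1 higher and 1 lower. The lower was Mras, a small G protein of the Ras family. Mras was lower in BTBR at all 4 of its tested probes, with differences of -0.51, -0.35, -0.31 and -0.31, of which the first 2 were called (limma adjusted p = 0.0087 and 0.012). At A_52_P203798 it gave 11.08 to 11.33 in B6 and 10.51 to 10.81 in BTBR, without overlap.

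None of the 21 tested genes of scaffolds and inhibitors and none of the 11 effector kinases downstream of the MAP kinases was called by limma or the rank product, with medians of 0.00 over the probes of each list. At an unadjusted p under 0.05 limma gave 1 of 38 probes of the first list (2.63%) and 0 of 17 of the second, against 18.5% of all probes. Of 20 tested nuclear targets 1 was called (5.00%, against 10.1% of all gene names), Ets1, a transcription factor phosphorylated by ERK. Its probe A_52_P232830 gave 9.18, 9.19, 9.36 and 9.24 in B6 and 9.70, 9.86, 9.99 and 9.84 in BTBR, a difference of 0.60 (limma adjusted p = 0.0013). The other 2 probes of Ets1 had -0.07 and -0.04 (limma adjusted p = 0.70 and 0.86).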

How the data were processed

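The intensity values of the 8 arrays were deposited by the authors as Agilent Feature Extraction output (version 10.7.3.1 per the file headers, 9.1 per the submitters' processing notes), holding for each spot its mean intensity, local background and flags, unscaled. The authors also deposited a matrix of log2 values, background subtracted and quantile normalized with Agi4x44PreProcess, which served as an alternative. Its offset is not given in the sources used here. Probe coordinates are those of mm9 in the files, and gene names are those of the array.

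Background-subtracted spot intensities, not allowed to fall under 0.5, were raised by an offset of 50, converted to log2 and quantile normalized. The offset compresses the differences of dim probes. Control spots and spots flagged as outliers on any of the arrays were dropped, a probe's value was the median of its spots, and a probe entered the test when 75% or more of either strain's arrays had it well above background (27981 probes). Without this filter 41020 were tested. Limma 3.58.1 in R 4.3.3 fitted strain alone, as a test against the spread between mice, with Benjamini-Hochberg adjustment over all tested probes. The study's rank product, with 100 permutations, was an alternative. The fit was tested on simulated data. Figures were drawn with Python 3.11.15 and Matplotlib 3.10.9. No genome or protein sequences were used here, and probe sequences are those of the array files. Whether the strains differ in sequence under a probe was therefore not tested for any gene.

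Named were members with a called probe, a set of core members (Mapk3, Mapk7, Mapk8, Mapk9, Mapk10, Mapk14, Map2k1, Map2k2, Map2k4, Map2k7, Map3k5, Map3k6, Map3k12, Map4k4, Dusp1, Dusp4, Dusp6 and Dusp7), and at most 3 called genes of each other list; Mapk6, Map2k6, Dusp12, Dusp8, Dusp22 and Dusp23 were added after their values were seen, and the rest are given by value or range. Some genes are not reported here by name. The members and lists were chosen with earlier results of these data known. Lists of Ras and Raf genes, scaffolds and inhibitors, effector kinases, nuclear targets, and markers of hippocampus, neurons, astrocytes, microglia, oligodendrocytes, thalamus, choroid plexus, meninges and vessels, pituitary, blood and neuronal activity were written from general knowledge. Of the lists not given with the results, limma called 1 of 10 meningeal (higher, 10%), 0 of 7 pituitary, 0 of 3 blood and 0 of 10 activity genes. Replicate numbers were not treated as pairs in the main fit. Correlations of deviations between same-numbered arrays ran from -0.14 to 0.51, and were not set against those of differently numbered arrays. As alternatives, the fit was repeated with the processed signal scaled to its 75th percentile, normexp correction, the deposited matrix and other filters. It was also repeated with each array left out, with BTBR replicates 1 and 2 left out, and with replicate or slide as a block. The strains were also compared within each slide, in a single fit to all arrays. Further settings were limma with trend and robust options, an adjusted p under 0.01, the rank product, and the median over probes.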

Additional observations from a re-analysis of the deposited data

Results flagged for a closer look

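Among the named members, 3 arrays stood far from the other 3 of their strain by Dixon's test, of 84 groups of 4 arrays examined, where chance gives about 1 in 20. Dusp6 was 14.41 on BTBR replicate 3 and 13.94 to 13.95 on the other BTBR arrays. Map4k4 was 9.83 on B6 replicate 2 at A_51_P268053 and 10.08 to 10.11 on the other B6 arrays. Mapk3 was 14.47 on B6 replicate 4 at A_52_P243249 and 14.60 to 14.61 on the other B6 arrays. None of these probes was called, and no cause was tested.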

How the results depend on the processing

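Called member probes, 5 in the main fit, were counted again under each setting. The same 5 were called with normexp correction, the deposited matrix, outlier flags kept, the slide as a block, and trend and robust options. Using the processed signal, Dusp11 was lost, at 0.72 instead of 0.31, and Map3k15 gained; Dusp4 A_51_P518051 was -0.81 instead of -0.22 and 2 Map2k7 probes 0.33 and -0.31. Without the filter on dim probes Dusp13 joined, and among probes well above background on all arrays the called Dusp11 probe was not tested, leaving 4. Fits that leave out 1 array gave 3 to 5 member probes (2.78% to 4.63%, against 5.48% to 7.80% of all probes), for 3 to 5 genes. Of the 5 probes of the main fit they kept 2 to 4, with Dusp7 and the called Map3k6 probe among them in all 8. With the replicate number as a block there were 3 probes for 2 genes (2.78%, against 5.90% of all probes). These were the Dusp7 probe and both Map3k6 probes, the latter in opposite directions. The correlations of same-numbered arrays were -0.14, 0.51, -0.10 and 0.39. Within slide 1 there were 9 probes for 8 genes (8.33%, against 8.65% of all probes). Within slide 2 there were 2 probes for 2 genes (1.85%, against 3.70%). An adjusted p under 0.01 gave 2 probes (1.85%, against 4.27%), and the rank product 2 (1.85%, against 3.93% of all probes). With 1 median value per gene there were 2 genes (3.33%, against 7.78% of all gene names). None of the 5 calls reversed in any setting; of the probes called in other settings alone, Map3k6 A_52_P222775 ran from -0.83 to 0.19, the latter as the median with its opposite probe, and Map4k3 A_52_P320044 and Map3k14, called within slide 1 at -0.45 and 0.64, were 0.16 and -0.05 on slide 2. Dusp7 ranged from -0.82 to -0.50 and was called in 20 of 21 fits, and the called Map3k6 probe was lowest, at 0.19, as the median with its opposite probe.

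Of the other lists, scaffolds and inhibitors gave 2 genes within slide 1, 1 without BTBR replicates 1 and 2, and 0 to 1 with 1 array left out. Nuclear targets gave 2 genes with the replicate block, 2 within slide 1, 2 by the rank product, 0 with 1 median value per gene and up to 3 without 1 array. Ras and Raf genes gave 1 by the rank product. Tier medians changed with the setting, and those of MAP2K and the phosphatases changed sign. MAP2K, -0.05 over all its tested probes, was 0.07 without BTBR replicates 1 and 2 and 0.09 with 1 median value per gene. Without 1 array it was -0.06 to 0.04. MAP3K, 0.13 in the main fit, was 0.05 without BTBR replicates 1 and 2 and 0.00 within slide 2. The phosphatases, 0.01 in the main fit, were 0.05 within slide 1, -0.03 within slide 2 and -0.01 to 0.04 without 1 array. The cause was not tested. Signal over background limits the dim members, 20 probes of which were not tested.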
